A study of Mus musculus with 2 samples.

Results

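The HoxB cluster is a row of 10 genes for homeodomain transcription factors on mouse chromosome 11, Hoxb1 to Hoxb9 and Hoxb13, and all 10 were found by gene symbol among the 51912 gene rows of the deposited tables. RNA was measured in mouse embryonic fibroblasts (MEFs) of C57BL/6 background, connective tissue cells grown from embryos. The line called KS carried wild-type Usp16. The line called UKS began with floxed Usp16 alleles, which lie between sites cut by Cre recombinase, and lost them when Cre was delivered. Both lines were immortalized with SV40 T antigen, which inactivates p53 and the RB proteins, and both were infected with adenovirus carrying Cre. Each line gave 1 library, so the line, its source embryo and its genotype cannot be told apart. The comparison asks which transcripts differ between fibroblasts with and without Usp16, an enzyme that takes ubiquitin off histone H2A.

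Hox genes give cells their position along the head to tail axis of the embryo. In each cluster the genes lie in the order of their anterior limits, from low-numbered genes used in the hindbrain and neck to high-numbered genes used in the trunk and tail. Fibroblasts keep a Hox pattern of their place of origin in culture. Polycomb complexes hold silent Hox genes in check, and their PRC1 form places on histone H2A the ubiquitin that USP16 can remove.

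KS held 26561637 counts and UKS 23205746. Levels are given in CPM, a gene's share of the counts of its library scaled to a fixed total with TMM factors that align the bulk of genes; 1 count equals 0.0379 CPM in KS and 0.0428 in UKS. Usp16 had 1195 counts in KS and 459 in UKS, and a total per gene does not tell which exons remain. Of 9 fibroblast markers all were measured. Their log2 ratio of UKS over KS had a median of −0.46, with 6 of the 9 below 0. Thy1, Pdgfra, Col1a2 and Vim were 4.71-fold, 2.86-fold, 1.81-fold and 1.74-fold lower in UKS. Fn1, Pdgfrb and S100a4 were 1.62-fold, 1.39-fold and 1.10-fold higher. The summed level of the 9 markers was 18861 CPM in KS and 20985 CPM in UKS, of which Fn1 alone gave 8995 and 14581 CPM. The summed epithelial markers (0.833 and 0.728 CPM), endothelial markers (2.42 and 2.14 CPM) and blood markers (0.114 and 0.171 CPM) were low, with Krt5, Krt14 and Spi1 at 0 in both libraries. The neural markers summed to 34.4 and 45.7 CPM without a shared direction: Sox2 had 128 and 548 counts, Elavl4 105 and 3, Tubb3 539 and 400, Map2 136 and 116, and Sox10 0 in both. The 4 Y-linked genes Ddx3y, Eif2s3y, Kdm5d and Uty had 817 to 1511 counts in KS and 0 to 8 in UKS, and Xist had 1 and 6998, so the lines differ in embryo sex as well as in Usp16. The part of sex, of source embryo or of the differences in these markers in the HoxB values was not tested.

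The cluster was divided in its middle. Hoxb2, Hoxb3 and Hoxb4 were higher in UKS, and Hoxb5, Hoxb6, Hoxb7, Hoxb8 and Hoxb9 were lower. In bulk RNA, fewer cells with a transcript and less of it per cell cannot be told apart. The border lies in the 12145 bp between Hoxb5 and Hoxb4, an interval that also holds the microRNA gene Mir10a, 992 bp before Hoxb4. The other microRNA gene of the cluster, Mir196a-1, lies between Hoxb13 and Hoxb9.

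The sequences upstream of a gene on each side of the border are shown to let them be compared. RefSeq promoter windows (GRCm38.p6) matched 3 of the 10 members, Hoxb1, Hoxb4 and Hoxb8. The 250 bases before the start of Hoxb4 (chr11:96318017-96318266, plus strand) and of Hoxb8 (chr11:96281655-96281904, plus strand) are printed 5′ to 3′. Capitals mark TTTAT or its reverse complement, the core of the sequence bound by CDX homeodomain proteins.
Hoxb4: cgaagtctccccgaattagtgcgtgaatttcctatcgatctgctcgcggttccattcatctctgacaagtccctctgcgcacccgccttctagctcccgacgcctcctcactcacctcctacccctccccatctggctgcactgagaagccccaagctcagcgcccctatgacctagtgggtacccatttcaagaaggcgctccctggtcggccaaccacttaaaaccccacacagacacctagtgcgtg
Hoxb8: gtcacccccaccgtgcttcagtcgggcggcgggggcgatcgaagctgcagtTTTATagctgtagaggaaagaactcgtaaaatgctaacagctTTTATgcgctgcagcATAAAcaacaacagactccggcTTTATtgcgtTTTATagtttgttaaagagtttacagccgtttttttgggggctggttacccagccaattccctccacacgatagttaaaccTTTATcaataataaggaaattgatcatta
The Hoxb8 window held 6 matches to TTTAT, the nearest ending 24 bases before the start, and the Hoxb4 and Hoxb1 windows held 0. Of 32851 mouse promoter windows of the same length, 37.3% held at least 1 match and 0.393% held 6 or more. Searched on both strands, CCAAT (33.9% of windows), TATAAA (12.4%) and TGATNNAT (7.68%), a joint HOX and PBX motif, had 1, 2 and 1 matches upstream of Hoxb8, 0 of each upstream of Hoxb4, and 2, 0 and 1 upstream of Hoxb1. Both TATAAA matches overlapped TTTAT matches. CG dinucleotides numbered 12 before Hoxb8 and 14 before Hoxb4, against a median of 6. These motifs were chosen with the sequences known, and a match describes letters only.

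The microRNAs of the cluster are shown because they can pair with transcripts of the same cluster, with the seed (bases 2 to 8) in capitals, from RefSeq on GRCm38.p6. The Hoxb8 and Hoxb7 lines give the window with the most base pairs to miR-196a without gaps, from GENCODE M21. Only the 3′ untranslated region of the longest protein-coding transcript of each member was searched. The bases facing the seed are in capitals.
miR-10a-5p: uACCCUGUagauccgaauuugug
miR-196a-5p: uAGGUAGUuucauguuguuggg
Hoxb8 window: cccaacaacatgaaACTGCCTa
Hoxb7 window: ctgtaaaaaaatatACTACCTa
In the Hoxb8 window 21 of 22 bases pair with miR-196a-5p and 1 forms a G:U pair, and in the Hoxb7 window 14 pair and 1 forms a G:U pair. Outside Hoxb8 the best window of each member had 11 to 14 pairs, with 14 also in Hoxb1, Hoxb4 and Hoxb13, and Hoxb7 is printed for its exact seed match. Exact seed matches to miR-196a-5p stood in the 3′ untranslated regions of Hoxb1, Hoxb6 and Hoxb7, 1 in each, and to miR-10a-5p in that of Hoxb3. Both hairpins, Mir10a and Mir196a-1, had 0 counts in both libraries, which were made for longer RNA and do not measure mature microRNAs.

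Hoxb1 and Hoxb13, the genes at the ends of the cluster, had no counts in either library. Hoxb1 (ENSMUSG00000018973; GRCm38 chromosome 11, 96365752 to 96368256, plus strand like all members) sets the identity of a hindbrain segment. Hoxb13 (ENSMUSG00000049604; 96194316 to 96197447) acts in the tail and later in the prostate. A count of 0 allows up to 3 counts, or 0.114 CPM in KS and 0.128 CPM in UKS, so both genes were not detectable at this depth. The other 8 members had a mean of at least 1 CPM, the minimum for a gene to be called measured.

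Hoxb2 (ENSMUSG00000075588; 96350525 to 96354012), which acts in the hindbrain and facial motor neurons, had the highest ratio of UKS to KS. It had 205 counts (7.77 CPM) in KS against 430 (18.4 CPM) in UKS, which puts UKS 2.37-fold higher [2.004 to 2.81]. Brackets give the exact Clopper-Pearson 95% interval of the count ratio, for counting error alone. With 1 library per group there is no replicate error and no test, and each ratio describes these libraries.

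Hoxb3 (ENSMUSG00000048763; 96323326 to 96347930), a gene of the hindbrain and pharyngeal region, was the member with the most counts in UKS. It had 541 counts (20.5 CPM) in KS against 750 (32.1 CPM) in UKS, which puts UKS 1.57-fold higher [1.40 to 1.75]. Hoxb4 (ENSMUSG00000038692; 96318267 to 96321638), known from the hindbrain and for expanding blood stem cells, had 161 counts (6.10 CPM) in KS and 260 (11.1 CPM) in UKS. That is 1.83-fold higher [1.49 to 2.24], an interval that overlapped those of Hoxb2 and Hoxb3. Of the exonic bases of Hoxb3 52.9%, and of Hoxb2 27.3%, also belong to exons of the antisense gene Hoxb3os, and use of strand in counting is not given in the sources used here. Hoxb3os itself had 11 and 12 counts. The exons of Hoxb4 overlap no other annotated gene.

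Hoxb5 (ENSMUSG00000038700; 96303336 to 96306121), which acts in the neural crest of the gut and in the lung, was the least abundant of the detected members. It had 111 counts (4.20 CPM) in KS against 39 (1.67 CPM) in UKS, which puts UKS 2.52-fold lower [1.73 to 3.72]. Hoxb6 (ENSMUSG00000000690; 96292476 to 96301569), a gene of trunk and lateral plate mesoderm, had 432 counts (16.4 CPM) in KS against 141 (6.04 CPM) in UKS, which puts UKS 2.71-fold lower [2.24 to 3.30]. The antisense gene Hoxb5os, which shares 3.59% of the exonic bases of Hoxb5, had 5 and 4 counts.

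Hoxb7 (ENSMUSG00000038721; 96286623 to 96290162), a trunk gene, had 295 counts (11.2 CPM) in KS against 109 (4.67 CPM) in UKS, which puts UKS 2.39-fold lower [1.92 to 3.01]. Hoxb8 (ENSMUSG00000056648; 96281905 to 96285315), which acts in the spinal cord and in myeloid precursors, had 471 counts (17.8 CPM) in KS against 154 (6.60 CPM) in UKS, which puts UKS 2.70-fold lower [2.25 to 3.27]. The intervals of Hoxb5 to Hoxb8 overlapped each other, so these 4 genes were not separable by the size of their difference.

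Hoxb9 (ENSMUSG00000020875; 96271457 to 96276595), which patterns the thoracic skeleton, had the lowest ratio. Its 729 counts (27.6 CPM) were the most of any member in KS, while UKS gave 153 (6.55 CPM), which is 4.21-fold lower by CPM [3.54 to 5.05]. This interval lay above those of Hoxb6, Hoxb7 and Hoxb8 and overlapped that of Hoxb5. Beyond Hoxb9, the long non-coding RNA gene Gm53 (96251105 to 96264868), which ends 295 bp before Mir196a-1, had 561 counts (21.3 CPM) in KS against 95 (4.07 CPM) in UKS, which puts UKS 5.22-fold lower [4.20 to 6.56].

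**Figure D1:**
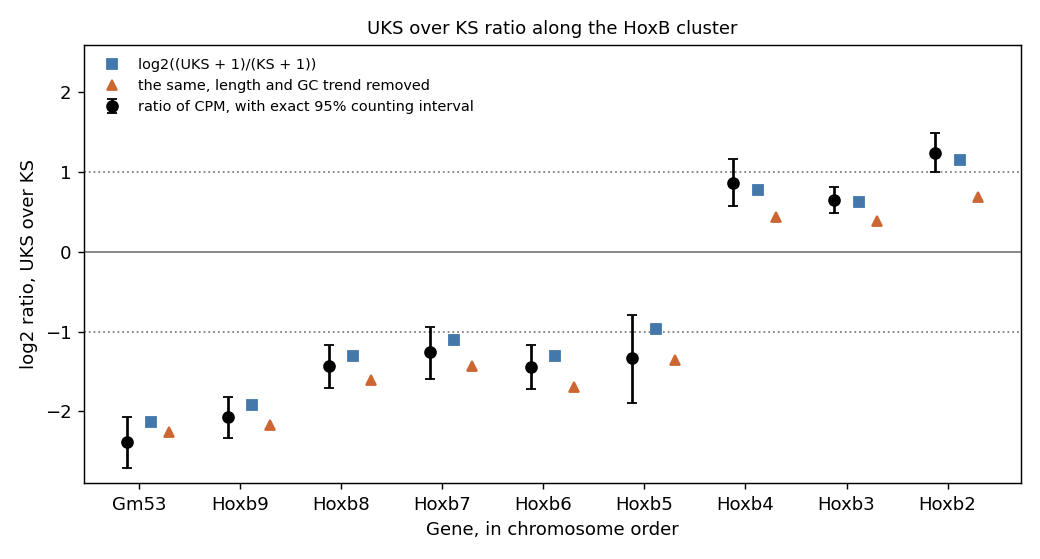
Log2 ratio of UKS over KS for Gm53 and the 8 measured HoxB genes in chromosome order. Circles are ratios of CPM with exact 95% counting intervals, squares add 1 CPM to each level and triangles also have the trend with length and GC content removed; Hoxb2, Hoxb3 and Hoxb4 lie above 0 and all others below on each scale.

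On the scale log2((UKS + 1)/(KS + 1)), which adds 1 CPM to each level and understates low genes, the ratios from Hoxb2 to Hoxb9 were 1.15, 0.62, 0.77, −0.96, −1.30, −1.10, −1.31 and −1.92. Of the 8 measured members 1 was past 2-fold upward, Hoxb2, and 4 were past 2-fold downward, Hoxb6 to Hoxb9. Hoxb5 was past 2-fold as a ratio of CPM but not on this scale. Over all 13015 measured genes 5.81% were past 2-fold upward and 10.7% past 2-fold downward. The 8 members had a median of −1.03 against 0.03 over all measured genes, but that median describes neither side of the cluster, since 3 members lay above 0 and 5 below. Members are neighbours in 1 cluster and not replicates.

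Ratios of these libraries also followed transcript length and GC content across all genes, and the HoxB transcripts had a median GC content of 54.4% against 49.9% for measured genes. With this trend subtracted, the log2 ratios of Hoxb2, Hoxb3 and Hoxb4 were 0.69, 0.39 and 0.44, so none was past 2-fold upward. Those of Hoxb5 to Hoxb9 were −1.36, −1.70, −1.43, −1.60 and −2.17, all past 2-fold downward. Over the 12997 genes with both properties 5.5% were then past 2-fold upward and 4.97% downward. The direction of each member was the same with and without the trend.

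Ratios between members within a library do not depend on how libraries are scaled. Their change between libraries still carries the length and GC trend, which was not removed here. On the log2 scale it was 0.46, 0.23, 0.33, 0.40, 0.29 and 0.25 for Hoxb2, Hoxb3, Hoxb4, Hoxb5, Hoxb8 and Hoxb9. Counts of Hoxb4 were 1.45 times those of Hoxb5 in KS and 6.67 times in UKS, a 4.60-fold change [2.99 to 7.15] across the border. For Hoxb2 against Hoxb9, near the ends of the detected stretch, the count ratio was 0.281 in KS and 2.81 in UKS, 9.99-fold apart [7.80 to 12.8].

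Of the 7 pairs of neighbouring members from Hoxb2 to Hoxb9, 3 had an interval that excluded equal ratios in the libraries. The others of these 3 were Hoxb2 with Hoxb3 (1.51 [1.23 to 1.86]) and Hoxb8 with Hoxb9 (1.56 [1.20 to 2.02]), both smaller than the step at the border. For the pairs from Hoxb5 to Hoxb8 the change was between 0.883-fold and 1.13-fold, with intervals that included no change. The step between Hoxb4 and Hoxb5 was thus the only neighbouring pair beyond 2-fold.

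The division altered which part of the cluster gave most of its RNA. Hoxb2, Hoxb3 and Hoxb4 together had 907 of 2945 cluster counts in KS, 30.8% [29.1 to 32.5], and 1440 of 2036 in UKS, 70.7% [68.7 to 72.7]; here the brackets are exact binomial intervals. This grouping was made after the values were seen. The summed level of the cluster differed far less than its parts, at 111.6 CPM in KS against 87.2 CPM in UKS, a 1.28-fold deficit [1.21 to 1.35]. Hoxb5 to Hoxb9 summed to 77.2 and 25.5 CPM, 3.02-fold lower [2.76 to 3.32], and Hoxb2 to Hoxb4 to 34.4 and 61.7 CPM, 1.80-fold higher [1.65 to 1.95].

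Levels of different genes were compared per length, as CPM per kilobase of the longest protein-coding transcript. In KS the order from high to low was Hoxb9 (10.7), Hoxb7 (8.66), Hoxb6 (8.33), Hoxb8 (6.77), Hoxb3 (6.42), Hoxb2 (4.77), Hoxb4 (2.38) and Hoxb5 (2.22). Neighbours in that order that did not differ beyond counting error were Hoxb7 and Hoxb6, Hoxb8 and Hoxb3, and Hoxb4 and Hoxb5. In UKS the order was Hoxb2 (11.3), Hoxb3 (10.1), Hoxb4 (4.34), Hoxb7 (3.62), Hoxb6 (3.07), Hoxb9 (2.55), Hoxb8 (2.50) and Hoxb5 (0.881).

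In UKS Hoxb2 and Hoxb3 were not separable by counting error, nor were neighbours in the order from Hoxb4 down to Hoxb8. Hoxb9 stood first in KS and in the sixth place in UKS. Hoxb2 stood in the sixth place in KS and shared the top with Hoxb3 in UKS, and Hoxb5 was listed last in both. Per length, Hoxb5 to Hoxb9 gave 73.0% of the cluster sum in KS and 32.9% in UKS. With the length of all annotated exons these shares were 78.6% and 40.6%, Hoxb2 stood in the seventh place in KS, and Hoxb3 stood above Hoxb2 in UKS.

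**Figure D2:**
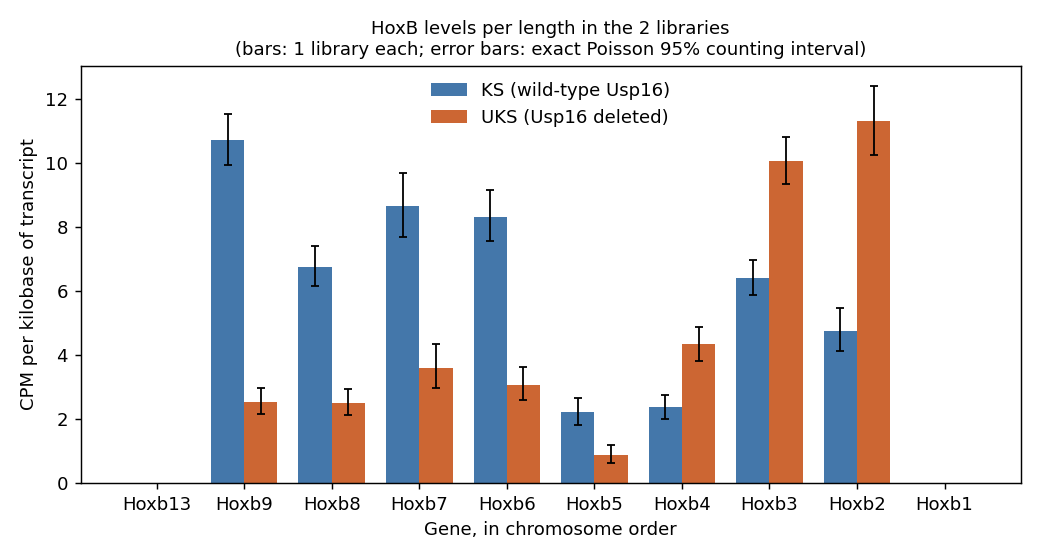
CPM per kilobase of transcript for the 10 HoxB genes in chromosome order, with 1 bar per library and exact Poisson 95% counting intervals. Hoxb9 is highest in KS (10.7), Hoxb2 (11.3) and Hoxb3 (10.1) are highest in UKS and not separable, and Hoxb1 and Hoxb13 are at 0.

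The genes around the cluster held none past 2-fold downward among those measured. Within 1 Mb of the cluster 42 protein-coding genes were annotated, of which 28 were measured. Of these 2 were past 2-fold upward and 0 downward, where all measured genes had shares of 5.81% and 10.7%. With the trend removed 2 were again past 2-fold upward and 0 downward, where the shares over all genes were 5.5% and 4.97%. With 28 genes, 0 is near a share of 4.97%. The median log2 ratio of the flanking genes was 0.19, and 0.02 with the trend removed. The nearest measured gene beyond Hoxb13 was Atp5g1, a subunit of ATP synthase, 119 kb away with a log2 ratio of 0.38. Beyond Hoxb1 it was Snx11, a sorting nexin, 399 kb away with a log2 ratio of 0.09. The higher genes were Phospho1, a phosphatase of bone mineralization (112 and 562 counts, log2 ratio 2.26), and Nxph3, which encodes neurexophilin 3 (34 and 223 counts, 2.21), both on the Hoxb13 side. Whether the HoxB genes differ from these neighbours was not tested.

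**Figure D3:**
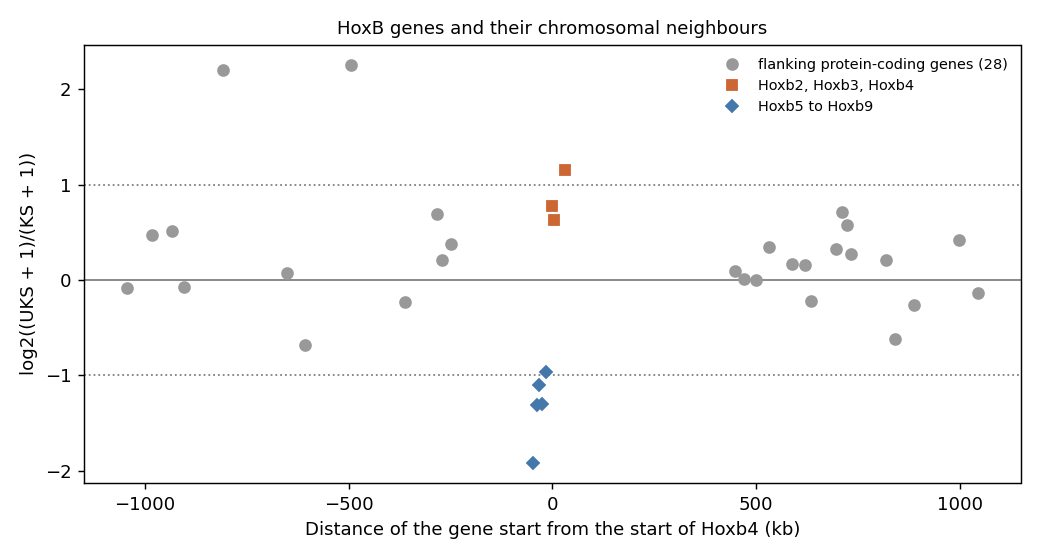
Log2((UKS + 1)/(KS + 1)) of the 8 measured HoxB genes and 28 flanking genes against the distance of each gene start from the start of Hoxb4, in kb. The flanking genes lie between −0.68 and 2.26, and Hoxb5 to Hoxb9 lie below all of them.

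The other Hox clusters, read by paralog group (genes at the same place in each cluster), were set beside HoxB. Hoxa2, the hindbrain paralog of Hoxb2, was 2.41-fold higher in UKS [1.89 to 3.08] with 101 and 215 counts. Of the paralogs of Hoxb3, Hoxa3 was 1.26-fold lower [1.16 to 1.37] with 1322 and 926 counts, while the interval of Hoxd3 (36 and 29 counts) included equal levels. In paralog group 4 the log2 ratio was 0.48 for Hoxa4, 0.14 for Hoxd4 and −1.63 for Hoxc4. With the trend removed Hoxa4 and Hoxd4 turned to −0.03 and −0.14, and Hoxa3 and Hoxd3 stood at −0.60 and −0.42.

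In the HoxA cluster the last gene above 0 was Hoxa5 (0.35), followed by Hoxa6 (−0.97), 1 gene further along than in HoxB, although Hoxa3 also lay below 0, as did Hoxa4 with the trend removed. Hoxa7 stood at −0.48 and Hoxa9 at −1.18, the latter with 567 and 208 counts, 2.41-fold lower [2.05 to 2.84]. In HoxD the paralogs Hoxd8 and Hoxd9 were at −0.07 and −0.84. None of the 6 measured HoxC genes lay above 0. Its paralogs of the lower HoxB genes, Hoxc5 (−2.10), Hoxc6 (−2.62), Hoxc8 (−3.14) and Hoxc9 (−2.84), each had a lower log2 ratio than the HoxB gene of the same number. These differences between clusters were not tested.

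Over groups 5 to 9 outside HoxB 5 of 10 measured genes were past 2-fold downward and 0 upward, and the median was −1.07. By cluster these were 4 of 4 HoxC, 1 of 4 HoxA and 0 of 2 HoxD genes, with medians of −2.73, −0.72 and −0.46. With the trend removed 7 of the 10 were past 2-fold downward, and the median was −1.43. Groups 10 to 13 outside HoxB had 2 of 5 measured genes past 2-fold downward, 0 upward and a median of −0.98. With the trend removed 3 of these 5 were past 2-fold downward, and the median was −1.13. Over groups 1 to 4 outside HoxB 1 of 7 was past 2-fold upward and 1 downward, and the median was 0.04. With the trend removed 0 of the 7 were past 2-fold upward, since Hoxa2 stood at 0.92, and the median turned to −0.14. The shares over all measured genes were 5.81% upward and 10.7% downward, and 5.5% and 4.97% with the trend removed. The summed levels in CPM were 1.28-fold lower in UKS for HoxA, 8.08-fold lower for HoxC and 1.50-fold lower for HoxD. The genes of other clusters whose log2 ratio lay nearest the HoxB median of −1.03 were Hoxa11 (−0.98), Hoxa6 (−0.97) and Hoxd10 (−1.12), a likeness that rests on 2 libraries.

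**Figure D4:**
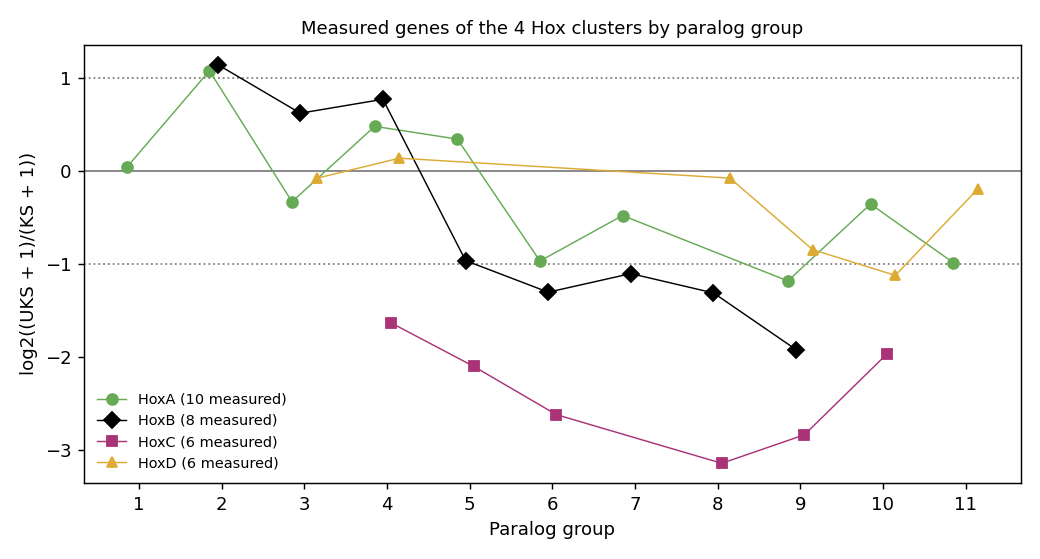
Log2((UKS + 1)/(KS + 1)) of the measured genes of the 4 Hox clusters by paralog group, with lines joining the genes of a cluster. HoxB runs from 1.15 at Hoxb2 to −1.92 at Hoxb9 with its step between groups 4 and 5, and all HoxC genes lie below −1.

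HOX proteins bind DNA with TALE cofactors of the PBX, MEIS and PREP families, and all 9 listed cofactor genes were measured. Of these 0 were past 2-fold upward and 1 downward (10.7% over all genes), and the median was 0.07. The lower gene was Meis1 (927 and 326 counts, log2 ratio −1.27, and −0.43 with the trend removed). Meis3 (468 and 765 counts) stood at 0.85. The abundant Meis2 (1275 and 851 counts) stood at −0.40.

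Known regulators of Hox transcription had no shared direction, with 6 above 0 and 5 below. Of 14 listed genes 11 were measured, of which 3 were past 2-fold upward (5.81% over all genes) and 0 downward, and the median was 0.21. With the trend removed 2 were past 2-fold upward and the median was −0.007. Egr2, which activates Hoxb2 in the hindbrain, gave 73 and 366 counts (KS and UKS), a 5.67-fold excess in UKS [4.40 to 7.39]. The retinoic acid receptor Rarg, whose class relays the retinoic acid signal to anterior Hox genes, had 3103 and 5538 counts and a log2 ratio of 1.01, which was 0.64 with the trend removed. Rarb, a receptor of the same class, went the other way with 181 and 73 counts, 2.19-fold lower [1.66 to 2.92], and log2 ratios of −0.93 and, with the trend removed, −0.88. Kmt2a, a methyltransferase that keeps Hox genes active, had 5099 and 2263 counts and a log2 ratio of −0.99, which was −0.02 with the trend removed. Cdx1, Cdx2 and Cdx4, activators of trunk Hox genes, had 0 counts in both libraries.

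Polycomb subunits showed no shared direction. All 21 listed genes were measured, 0 of them past 2-fold upward and 2 downward (10.7% over all genes), and the median was −0.14. The lower ones were Phc3 (2093 and 747 counts, log2 ratio −1.28) and Pcgf5 (978 and 408 counts, −1.04), at −0.27 and −0.14 with the trend removed. Suz12, a core subunit of PRC2, stood at −0.97 and at −0.36 with the trend removed. The abundant Cbx6 and Phc2 stood at 0.07 and 0.39.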

How the data were processed

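RNA-seq libraries of total RNA were made with an Illumina TruSeq kit after TRIzol extraction, per the labels' protocols. Per the submitters' processing notes, HISAT2, StringTie and the build GRCm38.p5 were used, in roles left unstated there. What counted the reads, on which annotation and with what use of strand is not given in the sources used here. In the files the authors deposited are estimated counts (expected counts, up to 2 decimals, not scaled to depth), which were rounded. For 4 of the 10 HoxB genes (Hoxb2, Hoxb3, Hoxb8 and Hoxb9) the deposited values were not whole.

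TMM factors came from edgeR 4.0.16 and alternative size factors from DESeq2 1.42.0, and intervals from scipy 1.17.1. A gene was measured if its mean reached 1 CPM, and ratios used a pseudocount of 1 CPM; 2-fold is a size, not a test. Lengths, GC content and coordinates came from GENCODE M21 on GRCm38, where 51719 of 51912 identifiers were found. The length and GC trend was a robust cubic regression (statsmodels 0.14.6) on log2 length and GC content. The steps were also run on simulated counts that held counting error alone and were scaled by library totals. Such counts hold no variation between cultures, so they do not test the differences between these lines. Members, lists and rules were chosen with earlier results of these data known. Named were all members, non-coding genes of the cluster, Usp16, paralogs, the nearest neighbours, the 3 other Hox genes nearest the HoxB median and the most different and most abundant members of each list. An engineered alteration that both lines share and some genes that the naming rule takes in are not reported here.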

Additional observations from a re-analysis of the deposited data

How the results depend on the processing

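A filter leaves the ratio of a single gene as it is, and a pseudocount cannot turn its sign. The other scalings shift all genes nearly alike, and moved Hoxb3, the member nearest 0, only from 0.62 to 0.64 and 0.60. Direction was thus mainly open to change under the trend removal. Under the other scalings and the trend removal, 3 alternatives, each of the 8 measured HoxB genes kept its direction. Of 24 values 18 moved by less than the mean reach of the counting interval to 1 side, on the log2 scale. The other 6 came from the trend removal. With a minimum of 5 CPM Hoxb5 was no longer measured. With a pseudocount of 4 CPM the HoxB median was −0.67, 0 members were at least 2-fold higher, and over all genes 914 were lower and 453 higher, against 1396 and 756. With the length and GC trend removed the HoxB median was −1.39, 0 members were at least 2-fold higher and 646 genes of all were lower. With the length of all annotated exons Hoxb5 to Hoxb9 gave 78.6% of the per-length sum in KS and 40.6% in UKS, against 73.0% and 32.9%. No paired analysis was possible because each group has 1 library. Counts of 39 to 750 limit the precision of single members, and no setting measures variation between cultures.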

Other observations

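Genes that mark limb and trunk position outside the Hox clusters were mostly lower in UKS. Of 12 listed genes 9 were measured, of which 0 were past 2-fold upward and 5 downward, where 10.7% of all measured genes were past 2-fold downward. With the length and GC trend removed 4 were, against 4.97% of all genes, and the median log2 ratio was −1.18 before and −0.90 after that step. Alx4, a homeodomain factor of limb and skull mesenchyme, gave 814 and 45 counts (KS and UKS), 16.0-fold lower [11.8 to 22.1]. Pitx1, which sets hindlimb identity, gave 95 and 0 counts, at least 22.3-fold lower by the exact interval of the count ratio, and 28.0-fold against a floor of 3 counts in UKS. Tbx4, another hindlimb gene, had 21 and 1 counts and was under the minimum level. Also under that level were Meox2 (4 and 25 counts) and Lhx2 (6 and 12 counts), both with more counts in UKS. The forelimb gene Tbx5 was lower as well, with 470 and 220 counts, 1.89-fold [1.61 to 2.23]. Emx2, a factor of the limb girdles, had 548 and 185 counts, 2.62-fold lower [2.21 to 3.11]. The abundant Tbx15, a factor of the limb and trunk skeleton and skin, had 2124 and 3098 counts, 1.65-fold higher [1.56 to 1.74], and Shox2, a factor of proximal limb bones, had 583 and 215 counts, 2.40-fold lower [2.05 to 2.82].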
